A study of Arabidopsis thaliana with 8 samples.

Results

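The nuclear genes for ribosomal RNA (rRNA) were examined in the peak lists of a chromatin immunoprecipitation study of Arabidopsis thaliana seedlings. The 4 genes, of 37899 nuclear genes in the gene table used, are AT3G41768 and AT3G41979 on chromosome 3 and AT2G01010 and AT2G01020 at the start of chromosome 2. They were taken by name as the annotated rRNA genes of the 2 reference copies of the rDNA, after peaks in them had been seen, so that every value below is a description without a test. A peak was counted as near them when any part of it lay within 10 kb of 1 of the genes.

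Both fusions were pulled down with the same GFP-binding resin from whole seedlings harvested 7 days after germination. In the GBPL3 group the seedlings carried the genomic AtGBPL3 sequence fused to GFP under its own promoter in the gbpl3-5 mutant (the line comp2). In the H2B group they carried AtH2B fused to GFP under the 35S promoter, a viral promoter active in most plant tissues, in Col-0. Each group had 2 replicates, with 1 list of called peaks for each of the 4 pulldown samples. Nothing in the labels states that replicates were grown apart, and the input samples, 2 for each fusion, were not analysed here. On the nuclear chromosomes the lists held 87 and 81 peaks for GBPL3 and 1361 and 8608 for H2B in replicates 1 and 2. Sequencing depth is unknown for all of them.

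In plants, RNA polymerase I transcribes the rDNA unit as a single precursor that is cut into the 18S, 5.8S and 25S rRNAs of the cytoplasmic ribosome. Internal spacers separate the 3 RNAs, and a longer intergenic spacer with the promoter separates each unit from the next. In Arabidopsis the units stand in long tandem arrays at the ends of chromosomes 2 and 4, where many of them are kept silent by DNA methylation and repressive histone marks; the active ones lie in the nucleolus. AtGBPL3 belongs to the guanylate-binding proteins, which are large GTPases, while H2B, as a histone of the nucleosome core, is present along all chromatin.

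The reference stands in for these arrays with few units, so a read from any repeat can be placed on either copy, and values at the copies are not independent. How reads with several possible places were treated is not given in the sources used here. The gene table types all 4 members as rRNA without saying which. The first gene of each copy is 1808 bases long and the second 164 bases, and by their known lengths and order they are called 18S and 5.8S here. A spacer of 268 bases separates them in both copies. The table names no 25S gene. In the background order of the unit the 25S RNA follows the 5.8S RNA, where the table has AT3G06365, a transcript of 3994 bases with no further type, on chromosome 3. The same stretch of chromosome 2 has AT2G01021, AT2G03865 and AT2G03875, and towards its end AT2G01023 and AT2G00340.

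All 4 rRNA genes were overlapped by a GBPL3 region with peaks of both replicates, against 0.0712% of all nuclear genes. Over all nuclear genes the share with a GBPL3 peak was 0.0765% in replicate 1 and 0.103% in replicate 2; the genes were chosen with this known, so nothing is read from the difference. An H2B peak overlapped 3 of the 4 genes in replicate 1, against 3.25% of all nuclear genes, and 0 of the 4 in replicate 2, against 19.6%. An H2B region of both replicates touched 1 of the 4 genes, against 2.1% of all nuclear genes, and covered only the first 2 bases of that gene (AT2G01010). Near the genes lay 12 and 12 GBPL3 peaks in replicates 1 and 2, and 14 and 2 H2B peaks. These made up 13.8 and 14.8% of the peaks of the GBPL3 lists, and 1.03 and 0.0232% of those of the H2B lists. H2B replicate 2, the longer list, thus held fewer peaks here than H2B replicate 1.

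**Figure D1:**
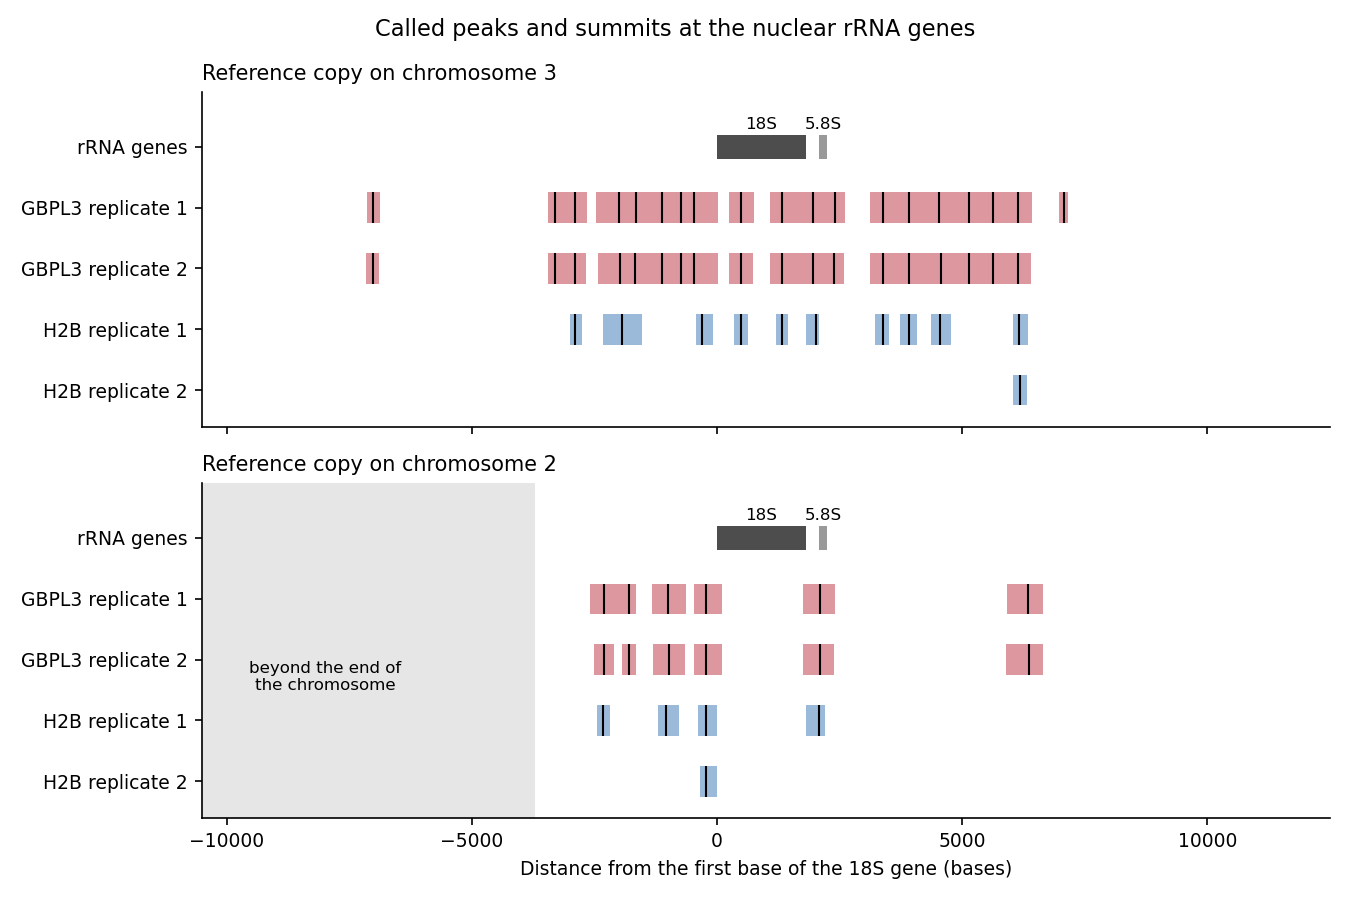
Peaks (bars) and summits (black lines) of the 4 lists along the rRNA genes of the chromosome 3 copy (top) and the chromosome 2 copy (bottom), by distance in bases from the first base of the 18S gene. GBPL3 peaks cover most of the unit in the chromosome 3 copy and leave most of the 18S gene bare in the chromosome 2 copy, and all 14 H2B replicate 1 peaks lie inside GBPL3 peaks.

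The 18S gene of chromosome 3, AT3G41768, encodes the RNA of the small ribosomal subunit. GBPL3 peaks covered 69.6 and 67.1% of it in replicates 1 and 2, and H2B peaks covered 29.4% of it in replicate 1 and none in replicate 2. Its highest GBPL3 summit lay in the peak at chr3:14197914-14198429 (replicate 1, build TAIR10), 489 bases into the gene, with folds of 12.6 and 8.05 over the local background in replicates 1 and 2. A further GBPL3 summit lay 1326 bases into the gene, with folds of 11.8 and 7.59. This place is the strongest of the peak that runs on over the 5.8S gene. H2B replicate 1 had 2 summits in the gene, at 489 and 1327 bases, with folds of 1.86 and 1.75. Both fusions were thus called at the same 2 places inside this gene. The folds of different lists stand on different backgrounds and are given side by side only.

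The 18S gene of chromosome 2, AT2G01010, has the same length but was nearly free of peaks. GBPL3 peaks covered 9.29 and 8.35% of it in replicates 1 and 2, H2B covered 0.111% in replicate 1 and none in replicate 2, and no summit of any list lay inside it. The GBPL3 peak at its start, chr2:3226-3813 in replicate 1, had its summit 223 bases before the gene in both replicates, with folds of 10.0 and 6.50. The peak at its end, chr2:5454-6109, had its summit in the 5.8S gene.

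The 5.8S genes, whose RNA pairs with the 25S RNA in the large subunit, were covered over their whole length by GBPL3 in both copies and both replicates. In AT3G41979 on chromosome 3 no summit of any list lay inside the gene; the peak over it, which also covers the end of the 18S gene, had its highest summit in the 18S gene (folds of 11.8 and 7.59). In AT2G01020 on chromosome 2 the GBPL3 summit lay in the gene, with folds of 8.67 and 5.12 in replicates 1 and 2. H2B replicate 1 had a summit there too, with a fold of 1.23, in a peak that covered 81.7% of AT2G01020, while AT3G41979 had no H2B peak in either replicate. The internal spacer before the 5.8S gene was fully covered by GBPL3 in both copies and both replicates. H2B replicate 1 covered 98.1% of it on chromosome 3 and 97.8% on chromosome 2, and H2B replicate 2 had none.

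The copies also differed in the stretch after the 5.8S gene, of which GBPL3 covered 3849 and 3634 bases within 10 kb on chromosome 3 and 908 and 897 on chromosome 2, in replicates 1 and 2. On chromosome 3 the widest GBPL3 peak of the locus lay here, at chr3:14200804-14204095 in replicate 1 (3292 bases) with 6 summits in each replicate, and it lay within AT3G06365. GBPL3 covered 84.1 and 83.5% of that transcript, with highest folds of 12.8 and 8.29, the highest near any rRNA gene in either replicate. On chromosome 2, AT2G01021, AT2G03865 and AT2G03875 had no peak in any list. The next GBPL3 peak there, chr2:9619-10362 in replicate 1, lay over AT2G01023 and AT2G00340, with folds of 8.03 and 4.80 and no H2B peak. It began 5913 bases from the 18S gene start, where the wide chromosome 3 peak ended at 6418 bases. By distance from the 18S gene, the chromosome 2 stretch that stands opposite AT3G06365 was thus not free of GBPL3 peaks. The sequences of the copies were not compared. H2B replicate 1 had 4 peaks in the stretch on chromosome 3, with folds of 1.21 to 2.02, and none on chromosome 2. The single H2B replicate 2 peak of the chromosome 3 copy, chr3:14203722-14204008, was also there, with a fold of 1.81.

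Before the 18S gene, GBPL3 peaks stood in both copies. Which bases of this stretch are intergenic spacer, promoter or part of the transcribed precursor was not determined. Over the 3705 bases that the chromosome 2 copy has before its 18S gene, GBPL3 covered 87.6 and 86.6% on chromosome 3 and 56.5 and 48.5% on chromosome 2, in replicates 1 and 2. The last GBPL3 peak before the 18S gene ran 12 and 15 bases past the gene's first base on chromosome 3, and 107 and 92 bases past it on chromosome 2. Protein-coding genes are annotated in this stretch, AT3G41762 and AT2G01008, and so are the microRNA genes MIR5642a on chromosome 3 and MIR5642b on chromosome 2. GBPL3 covered the whole of MIR5642a (folds of 9.08 and 5.78 in the peak over it) and 71.0 and 64.8% of MIR5642b (folds of 8.02 and 5.14). H2B replicate 1 covered 32.0% of MIR5642b and none of MIR5642a. Of all 17 other genes of the table within 10 kb, 10 were overlapped by GBPL3 in each replicate, 6 by H2B replicate 1 and 1 by H2B replicate 2. The shares of all nuclear genes were 0.0765 and 0.103% for GBPL3 and 3.25 and 19.6% for H2B in replicates 1 and 2. These genes lie in a window chosen with its peaks known, and several share 1 peak, so nothing is read from the counts.

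Set on the same scale, with each copy counted from the first base of its 18S gene, the chromosome 3 copy was covered over more bases by GBPL3 and by H2B replicate 1. From the 18S gene onward GBPL3 covered 5540 and 5280 bases on chromosome 3, and 1508 and 1480 on chromosome 2, in replicates 1 and 2. Of the bases covered on chromosome 2, 1175 and 1163 were also covered on chromosome 3, and 333 and 317 were not. H2B replicate 1 covered 2099 bases on chromosome 3 and 398 on chromosome 2. H2B replicate 2, with 1 peak in each copy, covered 287 bases on chromosome 3 and 0 on chromosome 2 from the 18S gene onward. Its chromosome 2 peak lies before the 18S gene. Over the whole stretch that both copies have, it covered 287 bases on chromosome 3 and 345 on chromosome 2. Both replicates of GBPL3 thus gave the same order of the copies, with a difference of 4032 and 3800 bases. Summits of the copies did not stand at equal distances: the 6 GBPL3 replicate 1 summits on chromosome 2 lay 126 to 308 bases from the nearest chromosome 3 summit on this scale, and those of replicate 2 lay 129 to 313 bases away. Within 150 bases there were 3 of the 6 in each replicate, and 2 of the 4 in H2B replicate 1, whose other 2 were 390 and 738 bases away. The GBPL3 peaks of chromosome 3 left 2 stretches of the unit bare that were also bare on chromosome 2, of 325 and 524 bases in replicate 1 and 358 and 535 bases in replicate 2. The first of these lies inside the 18S gene and the second after the 5.8S gene. Other chromosome 3 gaps, of 198, 224 and 554 bases in replicate 1, had 119, 95 and 238 bases covered on chromosome 2. From the 18S gene onward GBPL3 covered only 12.3 and 12.1% of the chromosome 2 stretch in replicates 1 and 2. Most gaps would be bare there too, so nothing is read from the shared ones.

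The replicates of GBPL3 placed their summits at nearly the same bases. Near the rRNA genes 11 regions held a peak of each replicate. The 24 replicate 1 summits in them lay 0 to 43 bases from the nearest replicate 2 summit, with a median of 4.5 bases. In all other regions of both replicates the median was 6 bases over 77 summits. All 11 regions had a higher fold in replicate 1, as did 51 of the other 53. The ratio of replicate 2 over replicate 1 ran between 0.587 and 0.822 with a median of 0.641, against a median of 0.672 in those 53. Among the 11 regions near the rRNA genes, the 5 with the highest folds were the same 5 in both replicates. They were the peak over AT3G06365, both regions with a summit in AT3G41768 (1 of which reaches over AT3G41979), chr3:14194229-14195013 (folds of 10.8 and 7.32), and chr2:1122-2053 in AT2G01008 (folds of 12.6 and 7.42). Of the same 11, the region with the lowest fold in both replicates was chr3:14190523-14190789, which lies 6888 bases from the 18S gene, overlaps no gene, and had folds of 4.71 and 3.87.

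No peak lay close to the 10 kb limit. The outermost inside it were that region and a GBPL3 peak of replicate 1 alone, chr3:14204650-14204843, 4734 bases past the 5.8S gene with a fold of 3.97. The nearest outside were a GBPL3 peak of replicate 1, 15539 bases past the 5.8S gene with a fold of 3.76, and a region of both replicates 23197 bases past it in replicate 1, with folds of 4.99 and 3.83. Near the chromosome 2 copy no peak lay between chr2:9601-10362 and the edge of the window. On both sides the peaks at the edge of the chromosome 3 copy were lower than those within the unit.

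H2B peaks near the rRNA genes fell inside GBPL3 peaks. All 14 peaks of H2B replicate 1 and both peaks of replicate 2 lay wholly within a GBPL3 peak of replicate 1, and likewise within one of replicate 2. Elsewhere, among H2B replicate 1 summits whose peak overlapped a GBPL3 peak, 7 of 10 were in peaks wholly inside for GBPL3 replicate 1. For GBPL3 replicate 2 it was 8 of 8, and for H2B replicate 2 it was 1 of 6 and 2 of 8. From 3705 bases before the 18S gene to the last GBPL3 peak, GBPL3 replicate 1 covered 80.8% on chromosome 3 and 33.1% on chromosome 2. Of the bases under GBPL3 replicate 1 peaks, H2B replicate 1 covered 38.5% on chromosome 3 and 40.9% on chromosome 2. Counted by region, 9 of the 11 GBPL3 regions overlapped an H2B peak, where 23.4% of all 64 GBPL3 regions did, these 11 included. All 9 rested on H2B replicate 1: with replicate 2 alone the count was 2, and with a reciprocal overlap of 50% it was 4.

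The summits of the fusions were close. The 14 H2B replicate 1 summits lay 0 to 149 bases from the nearest GBPL3 replicate 1 summit and 0 to 158 from the nearest of replicate 2, with a median of 19.5 bases for each. In AT3G41768 the distances were 0 and 1 bases in GBPL3 replicate 1 and 2 and 0 bases in replicate 2. At the H2B replicate 2 summits they were 34 bases on chromosome 3 and 6 bases on chromosome 2, the same in both GBPL3 replicates. The 10 H2B replicate 1 summits elsewhere in the nuclear genome whose peak overlapped a GBPL3 replicate 1 peak lay 0 to 416 bases from a GBPL3 summit, with a median of 117. Against GBPL3 replicate 2 there were 8 such summits, 3 to 309 bases away with a median of 63. Whether the closeness differs between the rRNA genes and elsewhere was not tested.

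Where H2B was called more strongly, the GBPL3 summit was also higher. The 14 H2B replicate 1 peaks split by their −log10 q (the strength of the call, corrected for the number of places examined) into 7 of 14.6 to 32.1 and 7 of 1.33 to 8.33, a split chosen after the values were seen. The nearest GBPL3 replicate 1 summits had folds of 10.0 to 12.8 at the first 7 and 7.53 to 9.60 at the other 7. In GBPL3 replicate 2 they had 6.50 to 8.29 and 4.94 to 6.15. The 2 sets did not overlap in either replicate. The 11 GBPL3 replicate 1 summits nearest to no H2B summit ran between 3.97 and 12.6 and overlapped both sets. These points share the same libraries and the same repeated DNA.

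**Figure D2:**
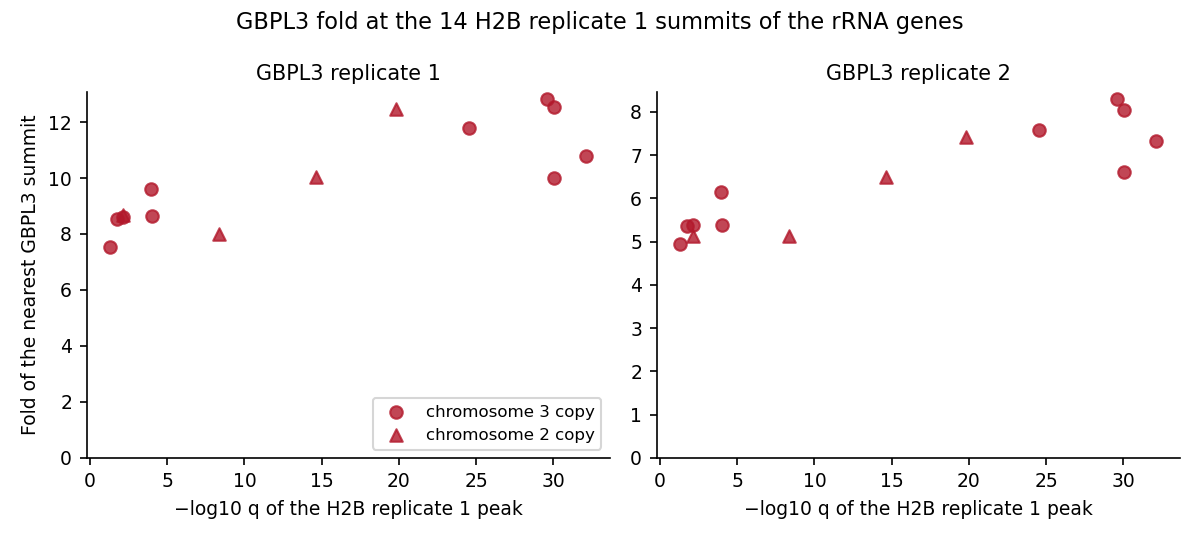
Fold of the nearest GBPL3 summit (vertical axis) against the −log10 q of each of the 14 H2B replicate 1 peaks near the rRNA genes, for GBPL3 replicate 1 (left) and replicate 2 (right); circles are the chromosome 3 copy and triangles the chromosome 2 copy. The 7 H2B peaks of 14.6 or more stand beside GBPL3 folds of 10.0 to 12.8 in replicate 1, above all 7 others.

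As a group, the 14 H2B replicate 1 peaks at the rRNA genes had a lower median fold and a higher median −log10 q than the rest of their list. Their folds ran from 1.17 to 2.02 with a median of 1.49, against a median of 1.88 in the other peaks of the list. Their −log10 q ran from 1.33 to 32.1 with a median of 11.5, against a median of 2.18. They took 7 of the 10 lowest folds of the list and 6 of its 10 highest −log10 q, but with different peaks: the 7 of lowest fold, 1.17 to 1.43, had a −log10 q of 1.33 to 8.33. The 1009 other peaks of the list with folds between 1.17 and 2.02 had a median −log10 q of 1.93. In replicate 2 the peak at chr3:14203722-14204008 had the highest −log10 q of all 8608 peaks (22.2), and the peak just before AT2G01010, chr2:3358-3702, had the lowest fold of the list (1.29). Such peaks were not limited to the rRNA genes. With a fold under 1.5, or under 2.1 at a −log10 q of at least 10, replicate 1 had 19 peaks. Of these, 14 lay near the rRNA genes and 5 elsewhere. All 19 overlapped a GBPL3 peak, as did 3 of the remaining 1342. In replicate 2, with 1.4 in place of 1.5, there were 3 such peaks, 2 near the rRNA genes and 1 elsewhere. All 3 overlapped a GBPL3 peak, as did 6 of the remaining 8605. These limits were not set in advance and lie just under the lowest remaining folds, 1.51 and 1.41 in replicates 1 and 2. They follow the edge of the peaks they pick out, so nothing is read from the overlap with GBPL3 peaks.

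**Figure D3:**
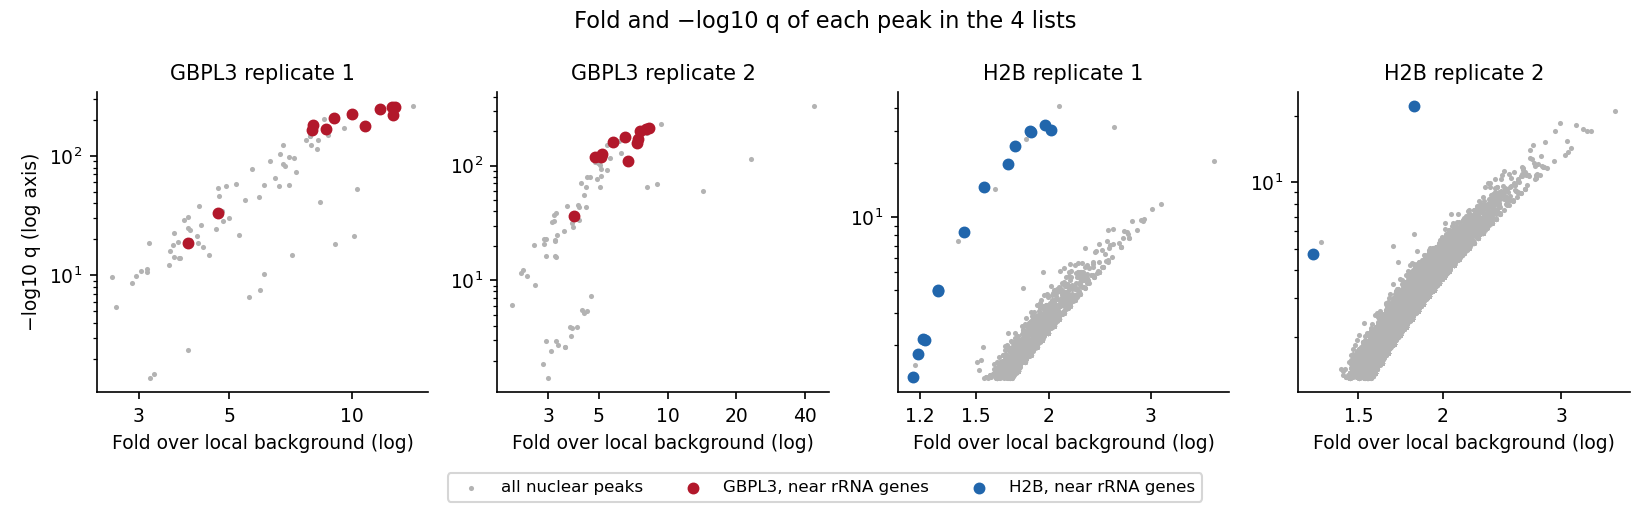
Fold over the local background (horizontal, log axis) and −log10 q (vertical, log axis) of every nuclear peak in the 4 lists, with the peaks near the rRNA genes coloured. In the H2B lists these peaks stand to the left of the main band, at folds of 1.17 to 2.02 in replicate 1. Within the low-fold limits given in the text there are also 5 peaks elsewhere in replicate 1 and 1 in replicate 2. In the GBPL3 lists 6 of the 12 are among the 10 highest −log10 q of each replicate, and the lowest rank 62 of 87 and 44 of 81.

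Among the GBPL3 regions of both replicates, those near the rRNA genes had a greater median width and a higher median fold than the other regions. They were 11 of 64 regions (17.2%) but took 30.7% of the bases. Their median width was 762 bases, against 343.5 bases in the 40 regions on the centromere side (at most 200 kb from an approximate midpoint) and 360 bases in the remaining 13. Median folds near the rRNA genes were 10.0 and 6.50 in replicates 1 and 2, against 6.02 and 4.10 on the centromere side and 7.13 and 5.12 in the remaining regions. The ranges overlapped: 4.71 to 12.8 near the rRNA genes and 2.57 to 9.88 on the centromere side in replicate 1. The remaining regions reached higher folds, up to 14.2 and 43.8 in replicates 1 and 2, against 12.8 and 8.29 near the rRNA genes. By mean fold 5 of the rRNA gene regions were among the 10 highest of all 64, but ranks 1, 2 and 3 were held by remaining regions. Among the 10 highest folds of each GBPL3 list, 6 and 3 peaks in replicates 1 and 2 were near the rRNA genes. Among the centromere-side regions 1 of 40 overlapped an H2B peak, and among the remaining ones 5 of 13, where 9 of the 11 near the rRNA genes did. The members were chosen from this contrast, so no test is given.

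**Figure D4:**
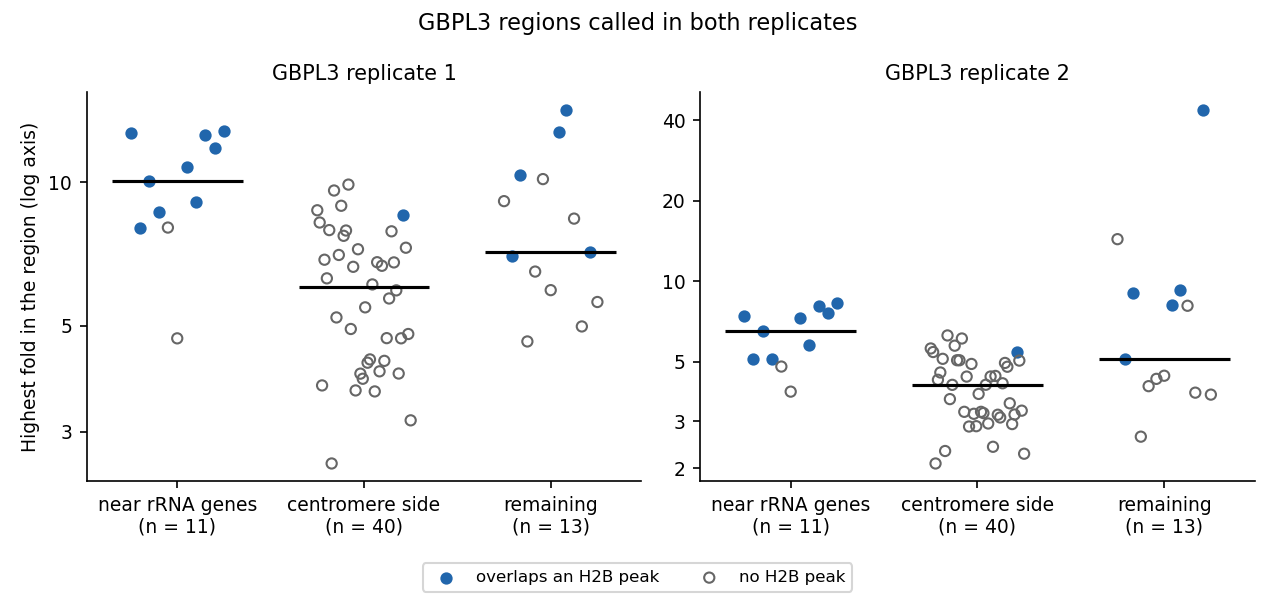
Highest fold (log axis) of each of the 64 GBPL3 regions of both replicates, in replicate 1 (left) and replicate 2 (right), for regions near the rRNA genes, on the centromere side and the remaining ones; black lines are medians and filled points overlap an H2B peak. Medians near the rRNA genes are 10.0 and 6.50, and 9 of the 11 points there are filled, against 1 of 40 on the centromere side.

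Outside the rDNA, among genes with a GBPL3 region of both replicates that overlaps an H2B replicate 1 peak, the highest mean GBPL3 fold was at AT5G46060 and AT5G46070, which share chr5:18682475-18683933. The folds of that region were 7.13 and 43.8 for GBPL3 and 1.74 and 1.69 for H2B in replicates 1 and 2, a ratio of replicate 2 over replicate 1 of 6.14, where the regions near the rRNA genes had 0.587 to 0.822. Its H2B peaks had a −log10 q of 1.55 and 2.22. The GBPL3 seedlings carried an added genomic AtGBPL3 sequence, whose locus the labels do not give. Whether reads from that sequence add to the GBPL3 folds here was not tested. The third was the pseudogene AT4G06477 (chr4:3060861-3061205), with GBPL3 folds of 10.3 and 9.02, an H2B replicate 1 fold of 2.60 and no H2B replicate 2 peak. Regions that overlap no gene could not be named by this rule. Among them, and chosen after their values were seen, were chr5:11184714-11185286 (GBPL3 folds of 12.7 and 8.16) and chr5:11185474-11186670 (14.2 and 9.31). Their H2B replicate 1 peaks had folds of up to 1.83 and 2.08 and a −log10 q of up to 27.0 and 41.2.

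Genes whose products make or silence rRNA had no GBPL3 peak. Of 15 such genes, 0 were overlapped by GBPL3 in either replicate, against 0.0765 and 0.103% of all nuclear genes in replicates 1 and 2. H2B overlapped 1 in replicate 1, against 3.25% of all nuclear genes, and 3 in replicate 2, against 19.6%. No H2B region of both replicates overlapped any of them, against 2.1%. Nothing is read from these counts. The list held 2 subunits of RNA polymerase I (NRPA1 and NRPA2), the nucleolins and fibrillarins (4 genes), 7 genes of rDNA silencing and 2 of chromatin assembly (FAS1 and FAS2). HDA6, a histone deacetylase needed to silence rRNA genes, had H2B peaks with folds of 1.80 and 1.86 in replicates 1 and 2 that did not overlap each other. FIB1, a fibrillarin that acts in the methylation of rRNA, and MBD6, which binds methylated DNA, had H2B peaks in replicate 2 alone, with folds of 1.57 and 1.98. With so few genes called for GBPL3 over the genome, a lack of peaks at 15 genes was not detectable.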

How the data were processed

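The authors used BWA 0.7.12, MACS2 2.1.0 and the build TAIR10, per the submitters' processing notes. For the options of these tools and the control sample of peak calling, the answer is not given in the sources used here. The deposited lists, 1 per pulldown sample, are narrow peak files: the authors' fold (a linear ratio of the summit over the local background), −log10 p and −log10 q, a score (the −log10 q multiplied by 10, decimals dropped), and the summit offset.

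Summit lines of 1 interval were merged, keeping the highest fold and −log10 q. A region of both replicates is a run of peaks overlapping by at least 1 base with a peak of each replicate. Genes came from a RefSeq table of TAIR10.1 (no strand or exons); 91.2 to 93.6% of H2B replicate 2 summits per chromosome lay in a protein-coding gene, and 62.2 to 66.0% after a shift of 20 kb. Centromere midpoints are approximate. Distances are from the first base of the 18S gene. Python 3.11.15 and pandas 2.3.3 were used, and the overlap code was tested on simulated data.

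The members and lists were chosen with earlier results of these data known. Named genes are the members, other genes within 10 kb, listed genes with a peak and up to 3 genes of like pattern. No p-value was computed; 2 libraries per fusion allow no useful test. Alternatives were other windows (5 and 20 kb), a −log10 q of at least 5, every summit line, reciprocal overlap of 50% and leaving out each replicate.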

Additional observations from a re-analysis of the deposited data

How the results depend on the processing

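Of 39 values recomputed under an alternative, 31 moved by less than the limit set for them (1.5 times for counts, otherwise the spread between replicates). With every summit line counted, 25 and 24 summits of GBPL3 replicates 1 and 2 lay near the rRNA genes in place of 12 and 12 peaks. With a −log10 q of at least 5, H2B replicates 1 and 2 kept 8 and 1 peaks in place of 14 and 2. With a reciprocal overlap of 50%, 4 GBPL3 regions in place of 9 overlapped an H2B peak. Leaving out each replicate in turn gave 2 to 9 such regions, 2 being without H2B replicate 1. The H2B count of 2 regions of both replicates became 2 to 14 peaks, 14 being without H2B replicate 2. The log2 ratio of the median GBPL3 fold near the rRNA genes over the centromere side was 0.72 over the regions of both replicates. With 1 replicate left out it was 0.74 to 0.99. That range counts every peak of the remaining list, so the set of peaks changed along with the replicate. The cause of the change was not tested. All 4 genes were overlapped by GBPL3 under each of the 4 alternatives tried for that count. No paired analysis was possible because no result comes from a test. Depth is unknown, so where H2B replicate 2 has no peak, H2B was not detectable there rather than absent.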

Other observations

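The plastid and mitochondrial genomes carry rRNA genes of their own. The 7 plastid rRNA genes of the table were overlapped by no peak in any of the 4 lists. GBPL3 replicates 1 and 2 had 3 and 2 mitochondrial peaks, of which the highest had folds of 3.92 and 2.78, and replicate 2 had 2 plastid peaks with folds of 1.69 and 1.63. The H2B lists had none on either organelle genome. The lowest peak folds of GBPL3 near the nuclear rRNA genes were 3.97 and 3.87 in replicates 1 and 2, each above the organelle peaks of its own list. In replicate 1 this margin was narrow and did not hold for −log10 q. The lowest −log10 q near the rRNA genes was 18.8 there, against up to 23.4 in mitochondrial peaks. In replicate 2 it was 36.8, against up to 18.7.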
